A study of Mus musculus with 6 samples.

Results

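The genes described here encode the fibrillar and elastic extracellular matrix that mesenchymal cells lay down: fibrillar collagens, collagen VI, fibril-associated collagens, adhesive glycoproteins, proteoglycans, elastic fibre proteins and the enzymes that crosslink them. They were taken by symbol from a list of 38 genes, of which 36 had at least 1 probe set listed with that gene alone and 34 were above the level filter and tested, among 14170 genes tested in all. The tissue was the otic vesicle with the mesenchyme around it, dissected from mouse embryos at embryonic day 11.5 and measured on 6 Affymetrix arrays. In the 3 Mest-KO arrays Tbx1, a T-box transcription factor gene, was a conditional knockout made with T-Cre, a Cre recombinase under control of the T (brachyury) gene that acts in mesoderm. The 3 control arrays came from T-Cre conditional Tbx1 heterozygotes, so both groups carried the Cre, and the controls were not wild type for Tbx1. Each array held a pool of 3 embryos, left and right ears together, and the epithelium of the otic vesicle, which is ectodermal in origin, was part of every pool. The Tbx1 probe set did not separate the groups (log2 difference -0.03 ± 0.14 SE; limma, adjusted p = 0.967), and where it reads the transcript relative to the deletion is not given in the sources used here, so it does not check the labels.

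Fibrillar collagens are secreted as procollagens, trimmed outside the cell and packed into fibrils, on which fibril-associated collagens and small leucine-rich proteoglycans sit and set the spacing. Fibronectin, periostin, tenascins and thrombospondins link fibrils to each other and to integrins on cells. Elastic fibres form when elastin is laid on microfibrils of fibrillins with fibulins and microfibril-associated proteins, and lysyl oxidases crosslink both collagen and elastin. In the embryonic ear this matrix surrounds the otic vesicle before the mesenchyme condenses into the cartilage of the otic capsule.

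Postn, encoding periostin, was the single one of the 34 tested matrix genes that passed the test over all genes, and it rose 1.46-fold in Mest-KO. The promoters of 4 start sites are shown because they belong to the gene that passed, to a fibrillar collagen that stayed close to its control level, and to the one listed matrix gene with a T-box half-site. Each is the 250 bases before a RefSeq start site in GRCm38.p6, written 5′ to 3′ on the gene's own strand. Capitals mark matches, on either strand, to the TATA box TATAAA, the T-box half-site GGTGTGA or the CCAAT box.
Postn, upstream start, chr3:54359017-54359266, plus strand: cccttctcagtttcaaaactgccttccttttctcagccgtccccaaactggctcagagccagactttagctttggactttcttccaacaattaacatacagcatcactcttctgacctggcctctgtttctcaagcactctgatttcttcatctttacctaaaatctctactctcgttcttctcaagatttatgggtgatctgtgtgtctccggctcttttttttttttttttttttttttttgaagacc
Postn, downstream start, chr3:54360857-54361106, plus strand: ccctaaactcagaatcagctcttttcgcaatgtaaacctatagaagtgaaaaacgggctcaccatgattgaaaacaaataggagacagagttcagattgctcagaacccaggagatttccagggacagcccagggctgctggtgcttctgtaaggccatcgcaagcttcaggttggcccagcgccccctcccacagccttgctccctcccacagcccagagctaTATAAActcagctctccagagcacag
Col3a1, chr1:45311288-45311537, plus strand: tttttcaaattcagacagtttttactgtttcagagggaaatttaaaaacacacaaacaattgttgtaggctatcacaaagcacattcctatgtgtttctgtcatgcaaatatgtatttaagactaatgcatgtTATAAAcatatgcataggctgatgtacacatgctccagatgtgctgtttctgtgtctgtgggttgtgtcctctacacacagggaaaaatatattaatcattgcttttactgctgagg
Fbln5, chr12:101819120-101819369, minus strand: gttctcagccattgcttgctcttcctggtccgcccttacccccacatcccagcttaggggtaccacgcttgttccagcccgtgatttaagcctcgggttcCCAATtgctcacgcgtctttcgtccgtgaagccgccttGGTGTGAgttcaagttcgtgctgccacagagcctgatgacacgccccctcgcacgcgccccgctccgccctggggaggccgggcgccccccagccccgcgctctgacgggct
The TATA box of Postn began 26 bases before the downstream start, and that of Col3a1 began 117 bases before its start. The T-box half-site of Fbln5 began 112 bases before the start. Promoters were listed for 23 of the 38 matrix genes, with 29 start sites. A TATA box was present at 7 of these 29 and at 12.4% of all 32851 promoters of this length. These 7 belonged to 6 of the 23 genes, because overlapping windows at Tnc held the same match. A CCAAT box was present at 8 and 33.8%, and a T-box half-site at 1 and 3.33%. The palindromic SMAD element GTCTAGAC was found at 0 of the 29 and at 0.167% of all promoters. An E-box, CANNTG, was found at 18 of the 29 and at 66.2% of all. These are matches of letters within a short window and no binding was measured.

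Levels are given as intensities in the arrays' own linear units, as mean ± SD over 3 arrays. Differences are Mest-KO minus control on the scale log2(intensity + 16), with the standard error of a limma fit over all genes and a p adjusted by the Benjamini-Hochberg method over the 14170 genes. On this scale 12 genes rose and 9 fell at an adjusted p under 0.05, which is 0.148% of genes tested (0.0847% higher and 0.0635% lower). With the arrays centred on their medians the balance turned, with 22 genes higher and 56 lower. Of the 34 matrix genes 1 rose and 0 fell. At an unadjusted p under 0.05 were 7 of them, 4 higher and 3 lower, beside 8.97% of all genes (5.73% higher and 3.24% lower). The 3 Mest-KO values did not overlap the 3 control values for 7 matrix genes, 4 higher and 3 lower, beside 14.5% of all genes (9.32% higher and 5.22% lower). The median difference of the 34 was -0.01 and that of all genes tested was 0.01. Of the matrix genes 16 were higher and 18 lower (47.1% higher), beside 53.8% of all genes higher. That even split depended on the scaling, the arrays and the covariates. With centred arrays 9 were higher and 25 lower, and the same counts held without control 2. With the mean of hindbrain neural tube markers as a covariate 27 were higher and 7 lower. The median of all genes tested also moved, from 0.01 to -0.05, with centred arrays. It was 0.01 without control 2 and 0.02 with that covariate. In dissected tissue, fewer cells of a type and less RNA per cell cannot be told apart.

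**Figure D1:**
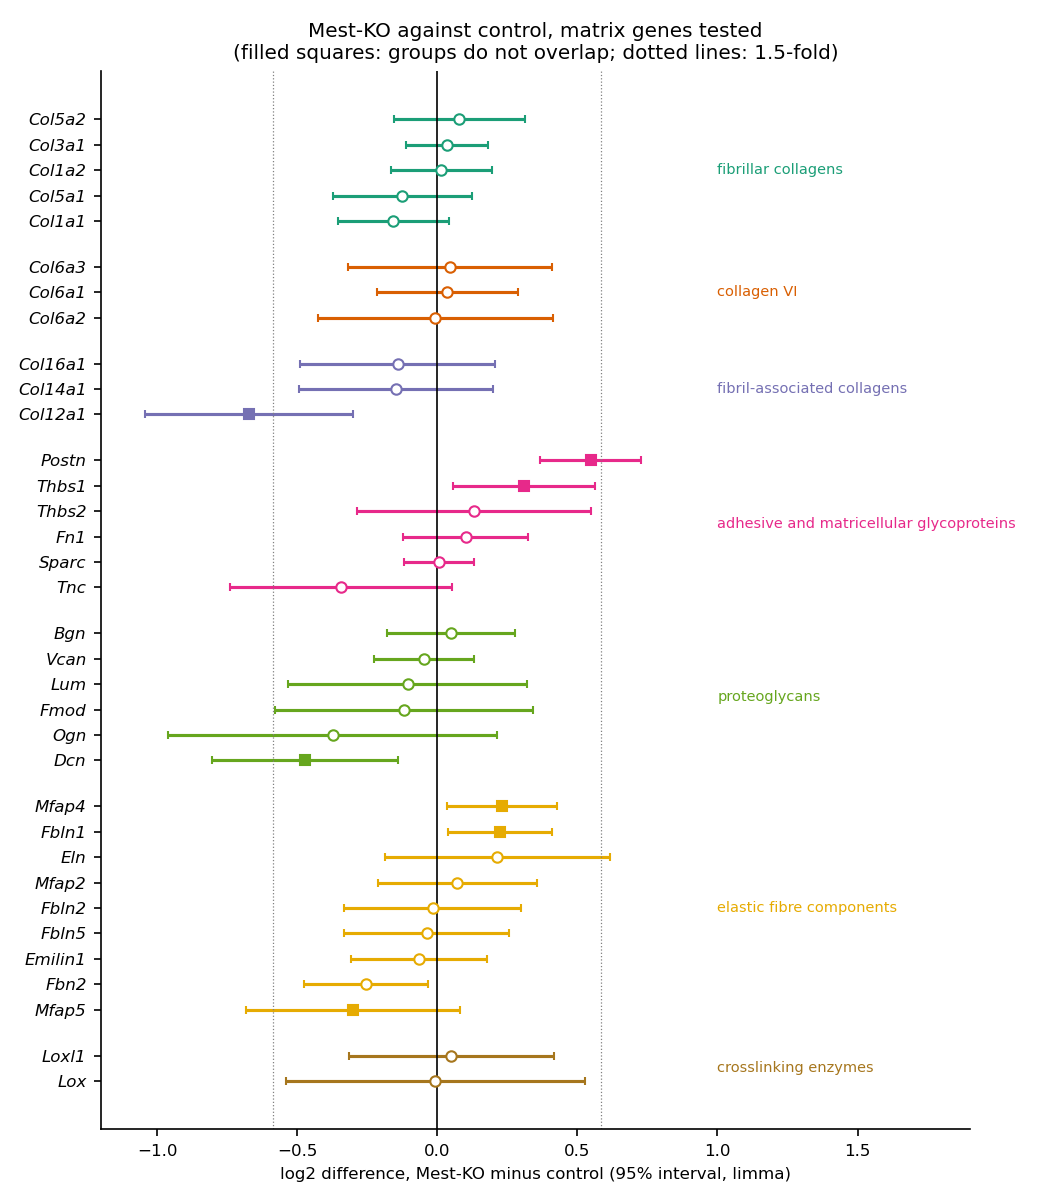
Log2 difference between Mest-KO and control for each of the 34 matrix genes tested, with its 95% interval, grouped by role; filled squares mark the 7 genes whose groups did not overlap, and dotted lines a 1.5-fold change. Postn at 0.55 is highest and Col12a1 at -0.67 is lowest, and the fibrillar collagens lie between -0.16 and 0.08.

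Mesenchyme was present in every pool. All 10 markers of mesenchyme, among them the transcription factor genes Prrx1 and Twist1 and the growth factor receptor gene Pdgfra, were above background on all 6 arrays. Their summed intensity ran from 36652 to 37539 in control and from 34892 to 37720 in Mest-KO. All 8 markers of otic epithelium with a probe set were above background as well, at sums from 9258 to 10773 in control and from 9610 to 11210 in Mest-KO. Background here is the highest intensity, 11.2, of 27 bacterial probe sets whose transcripts had not been added to the samples. Of the 36 matrix genes with a probe set, 34 were above it on all 6 arrays. The 2 exceptions were Tnn, encoding tenascin-W, which was at or below it on all 6 arrays, and Aspn, encoding the proteoglycan asporin, which exceeded it on control 3 alone (12.7). Both were below the level filter and neither was tested.

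Among the adhesive and matricellular glycoproteins, Postn read 1574, 1395 and 1611 in control, in the order of the replicate numbers that is kept throughout, while the Mest-KO arrays read 2216, 2267 and 2223. Every Mest-KO array was above every control array, and the Mest-KO arrays lay closer together than the controls. Its mean went from 1527 ± 115.8 to 2235 ± 27.9 (log2 difference 0.55 ± 0.08, 95% interval 0.37 to 0.73; limma, adjusted p = 0.0337; exact permutation p = 0.1, the smallest that 3 arrays against 3 allow). Periostin binds fibronectin, tenascin and collagen and acts on cells through integrins, and the gene has 1 probe set on the array. The difference kept its direction and ranged from 0.48 to 0.65 over 19 alternative settings, but the adjusted p was under 0.05 in 9 of them. The call was lost without control 1 (adjusted p = 0.10) or 3 (0.0983), and without Mest-KO 1 (0.158), 2 (0.122) or 3 (0.0710), and was kept without control 2 (0.0353). It was also lost when all 26736 probe sets above the filter were fitted instead of 1 per gene (limma, adjusted p = 0.0545 with a difference of 0.55 ± 0.08).

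Several marker lists of other cell types differed alongside Postn, counted here by the sign of the log2 difference. By that sign 53.8% of all genes tested were higher in Mest-KO. The markers of cranial neurons were higher in Mest-KO for 10 of 10 genes, with summed intensities from 34093 to 36730 in control and from 39900 to 41868 in Mest-KO. Blood endothelial markers were higher for 9 of 9, 1 of which, Esam, had near-equal means of 392.5 and 392.4, with sums from 5188 to 5506 and from 5615 to 6140. Of 6 markers of Schwann cell precursors and neural crest, 4 were higher, with sums from 9363 to 10795 and from 10814 to 11015. Sox10, also listed as a marker of otic epithelium, weighed on these sums, at 1897 to 2119 in control and 2482 to 2822 in Mest-KO. Foxd3 did not overlap either but was dim, with means of 73.1 and 102.2. The groups of Erbb3, Fabp7, Tfap2a and Tfap2b overlapped, and Tfap2a and Tfap2b were lower, by -0.17 ± 0.15 and -0.25 ± 0.20. Smooth muscle and pericyte markers were higher for 9 of 10, but their sums overlapped, from 4753 to 4875 in control and from 4697 to 5912 in Mest-KO. Cnn1 of this list was not tested. It was below background in control, at 3.9, 3.8 and 7.2, and read 14.7, 32.0 and 17.3 in Mest-KO. Of the 9 tested, 8 were higher, with a median difference of 0.07. Hindbrain neural tube markers were lower for 8 of 10, with sums from 417.5 to 1527 in control and from 241.0 to 603.0 in Mest-KO, and Olig2 was at or below background on all 6 arrays. On mean intensities Nkx6-1 of these 8 was instead slightly higher in Mest-KO (82.3 and 85.7). Surface ectoderm markers were lower for 8 of 8, with sums from 7748 to 8550 in control and from 6234 to 8567 in Mest-KO. Erythroid markers were lower for 6 of 6, at 37285 to 39491 and 31740 to 38046, and markers of cartilage condensation for 8 of 10, at 11891 to 12181 and 11300 to 12108. The sums of these 3 lists, and those of the neural tube markers, overlapped between groups. With the mean of the neural tube markers as a covariate, Postn differed by 0.65 ± 0.10 (limma, adjusted p = 0.0700). Because most of these markers were themselves lower in Mest-KO, a fit of 6 arrays cannot fully separate this covariate from the group. That holds wherever the covariate is used here. With the mean of 3 Y-linked genes as a covariate, which carries the makeup of the pools by sex, Postn rose by 0.61 ± 0.09 (limma, adjusted p = 0.0450). All 3 Y-linked genes were higher in Mest-KO. Relative to their 6-array mean they stood at -0.49, 0.43 and -0.43 in control and 0.26, 0.23 and 0.01 in Mest-KO. These values differed partly with group, so the fit cannot fully separate the makeup by sex from genotype. With the Y-linked covariate 3 matrix genes had an unadjusted p under 0.05 (limma), against 7 without it. The part of the other marker lists in the Postn difference was not tested.

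Thbs1, encoding thrombospondin-1, a glycoprotein that binds fibrils and activates latent TGF-beta, read 537.0, 633.2 and 552.4 in control and 671.8, 801.8 and 673.5 in Mest-KO. Its groups did not overlap and the difference of 0.31 ± 0.11 did not pass (limma, adjusted p = 0.439). A dimmer probe set of the gene differed by 0.06 ± 0.17. Its relative Thbs2 differed by 0.13 ± 0.19 and Fn1, encoding fibronectin, by 0.10 ± 0.10. Fn1 had a second probe set that read 180.3, 102.3 and 133.7 in control and 245.1, 177.0 and 227.0 in Mest-KO, a difference of 0.61 ± 0.20 (limma over probe sets, adjusted p = 0.347). On that probe set only Mest-KO 2 overlapped the control range. Which part of the transcript each Fn1 probe set reads is not given in the sources used here. Sparc, encoding the collagen-binding protein osteonectin, differed by 0.01 ± 0.06 with a 95% interval from -0.12 to 0.13. Tnc, encoding tenascin-C, had its 3 Mest-KO values within or below the control range and differed by -0.34 ± 0.18 (adjusted p = 0.614).

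**Figure D2:**
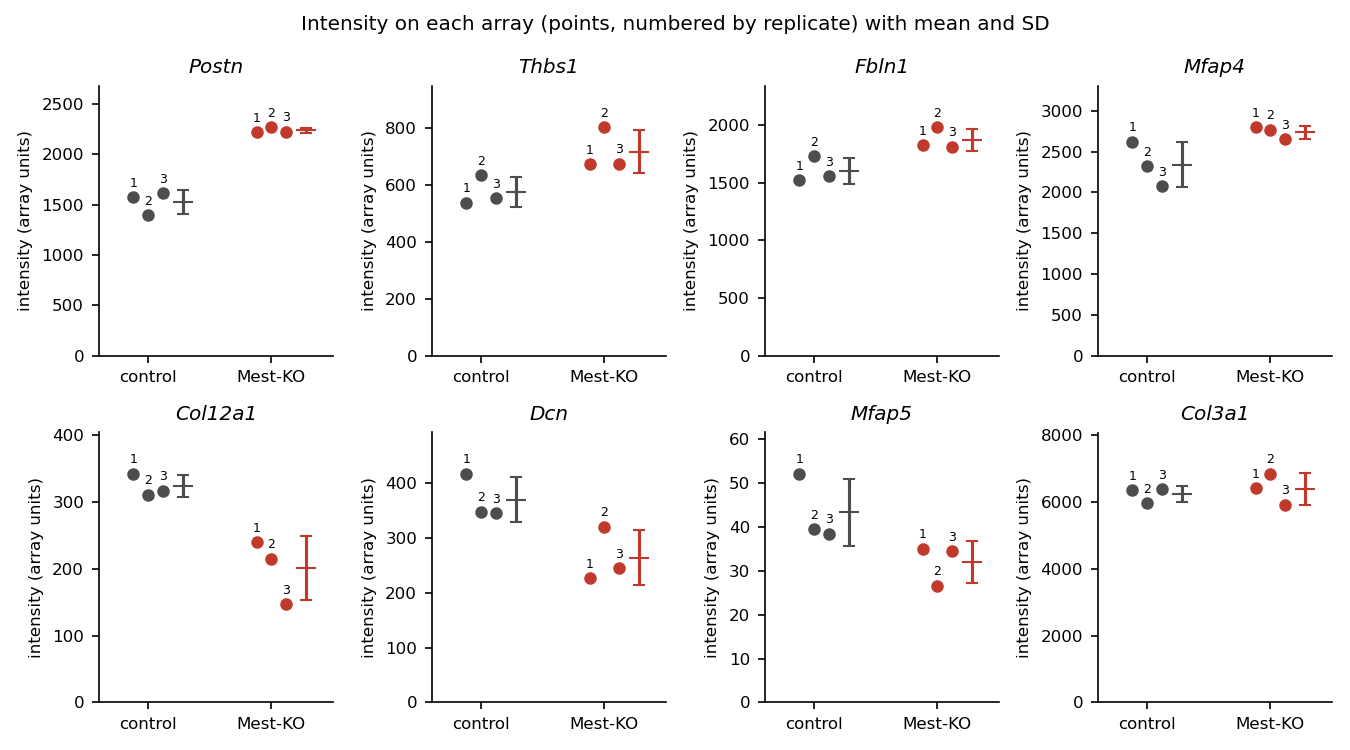
Intensity on each of the 6 arrays (points, numbered by replicate) for the 7 matrix genes whose groups did not overlap and for Col3a1, with mean and SD beside the points; each axis is linear and starts at 0. Postn, Thbs1, Fbln1 and Mfap4 are higher in Mest-KO, Col12a1, Dcn and Mfap5 are lower, and Col3a1 overlaps.

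The fibrillar collagens, which form the bulk of the fibrils, differed little. Of 5 tested, 3 were higher and 2 lower, with a median difference of 0.01, and 0 passed (limma; 0 at an unadjusted p under 0.05). Col3a1 read 6342, 5958 and 6388 in control and 6406, 6845 and 5912 in Mest-KO, so the Mest-KO range covered that of the controls. Its difference was 0.03 ± 0.07 with a 95% interval from -0.11 to 0.18. Col1a2, encoding the second chain of collagen I, differed by 0.01 ± 0.08. Col1a1, the other chain of collagen I, had the smallest p of this group and read 4947, 4673 and 5604 in control and 4432, 5068 and 4152 in Mest-KO. That is a difference of -0.16 ± 0.09 (adjusted p = 0.641), with Mest-KO 2 inside the control range, and it was 0.017 with the neural tube covariate. A second probe set of Col1a1 differed by 0.01 ± 0.12. Col5a1 and Col5a2, whose chains sit inside collagen I fibrils and limit their width, differed by -0.12 ± 0.11 and 0.08 ± 0.11. On the probe set that represents each gene, the intervals of all 5 lay inside a 1.5-fold change either way. So did those of 27 of the 34 matrix genes and 79.7% of all genes. Another probe set of Col5a1 differed by -0.29 ± 0.18, with an interval from -0.68 to 0.11 (limma over probe sets). That interval reached past 1.5-fold, as did that of a dim probe set of Col1a2 (0.06 to 0.87).

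Collagen VI forms beaded filaments around cells. Its genes Col6a1, Col6a2 and Col6a3 differed by 0.04 ± 0.11, -0.01 ± 0.19 and 0.04 ± 0.17, and 0 of the 3 passed (limma; 0 at an unadjusted p under 0.05). Col6a1 read 1354, 1166 and 1288 in control and 1435, 1392 and 1098 in Mest-KO. The Mest-KO range again covered that of the controls, and the difference was -0.029 with the arrays centred on their medians. In RefSeq order Col6a1 and Col6a2 are adjacent, as are Col3a1 and Col5a2.

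All 3 fibril-associated collagens were lower in Mest-KO, and 0 passed. Col12a1, whose product bridges collagen I fibrils, read 342.5, 311.3 and 317.2 in control and 240.2, 215.3 and 147.1 in Mest-KO. Every Mest-KO array was below every control array, with Mest-KO 3 lowest. Its mean was 323.7 ± 16.6 in control and 200.9 ± 48.2 in Mest-KO, 1.61-fold higher in control. The difference of -0.67 ± 0.17 was the furthest from 0 of the 34 but did not pass (limma, unadjusted p = 0.00217, adjusted p = 0.206). Over the 19 alternatives it ranged from -0.81 to -0.31, and the adjusted p from 0.0586 to 0.767. A dimmer probe set of Col12a1 differed by -0.28 ± 0.18. Col14a1 and Col16a1 differed by -0.15 ± 0.16 and -0.14 ± 0.16, and their groups overlapped.

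Of the 6 proteoglycans tested, 5 were lower in Mest-KO and 1 was higher, with a median of -0.11, and 0 passed. Dcn, encoding decorin, which binds collagen fibrils and TGF-beta, read 417.5, 347.8 and 345.4 in control and 226.6, 320.9 and 244.7 in Mest-KO. The groups did not overlap, though Mest-KO 2 came close to controls 2 and 3. Dcn differed by -0.47 ± 0.15 (limma, unadjusted p = 0.00941, adjusted p = 0.323), and by -0.29 with the neural tube covariate. Its dim second probe set differed by -0.09 ± 0.27 with overlapping groups. Lum, encoding lumican, lies next to Dcn in RefSeq order and differed by -0.11 ± 0.19 with the control range inside that of Mest-KO. Ogn, encoding osteoglycin, read 1460, 789.7 and 1026 in control and 835.2, 1194 and 536.8 in Mest-KO, a difference of -0.37 ± 0.27. Its second probe set differed by -0.52 ± 0.26. Aspn and Ogn are separated by 1 gene, Omd, of the same leucine-rich family. Fmod, encoding fibromodulin, differed by -0.12 ± 0.21 and Bgn, encoding biglycan, by 0.05 ± 0.10. Vcan, encoding the large hyaluronan-binding proteoglycan versican of early mesenchyme, differed by -0.05 ± 0.08, with an interval from -0.23 to 0.13.

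Elastic fibre genes went both ways, with 4 of 9 higher, 5 lower and a median of -0.02, and 0 passed. Fbln1, encoding fibulin-1, a ligand of fibronectin and elastin, read 1520, 1730 and 1555 in control and 1823, 1981 and 1810 in Mest-KO. The lowest Mest-KO array was just above control 2, and the difference was 0.22 ± 0.08 (limma, adjusted p = 0.454). Its other 2 probe sets differed by 0.24 ± 0.10 and 0.42 ± 0.22, in the same direction. Mfap4, encoding a microfibril-associated glycoprotein that binds elastin and collagen, read 2620, 2322 and 2079 in control and 2799, 2768 and 2649 in Mest-KO. Here control 1 lay just below the lowest Mest-KO array, and the difference was 0.23 ± 0.09 (limma, adjusted p = 0.464), or 0.15 without control 3.

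Mfap5, encoding another microfibril-associated glycoprotein, was dim, at 52.1, 39.5 and 38.5 in control and 35.0, 26.6 and 34.5 in Mest-KO. Its groups did not overlap, and the difference of -0.30 ± 0.17 is understated by the added 16 (adjusted p = 0.643). A second Mfap5 probe set, above background on all 6 arrays, differed by -0.04 ± 0.18 with overlapping groups. Without control 1 the difference on the first was -0.20. Fbn2, encoding the fibrillin that predominates in embryonic microfibrils, read 3574, 3151 and 4122 in control and 3246, 3025 and 2777 in Mest-KO. The groups overlapped through Mest-KO 1, and the difference of -0.25 ± 0.10 did not pass (adjusted p = 0.470). A second Fbn2 probe set differed by 0.06 ± 0.11, in the other direction. Eln, encoding elastin, differed by 0.21 ± 0.18, Emilin1 by -0.07 ± 0.11, Fbln2 by -0.02 ± 0.14, Fbln5 by -0.04 ± 0.13 and Mfap2 by 0.07 ± 0.13, each with overlapping groups. Emilin1, an elastin-associated glycoprotein gene, had a second probe set that differed by -0.45 ± 0.16 with groups that did not overlap (limma over probe sets, adjusted p = 0.403). Fbn1 was not analysed here.

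Of the crosslinking enzymes, Lox and Loxl1 differed by -0.01 ± 0.24 and 0.05 ± 0.17. Loxl1 read 541.3, 411.3 and 507.3 in control and 555.8, 586.3 and 384.9 in Mest-KO, with Mest-KO arrays both above and below all controls. The interval of Lox ran from -0.54 to 0.53 and was among the widest of the 34. Loxl2 was listed only on 2 probe sets that also name another gene, and no value is given.

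**Figure D3:**
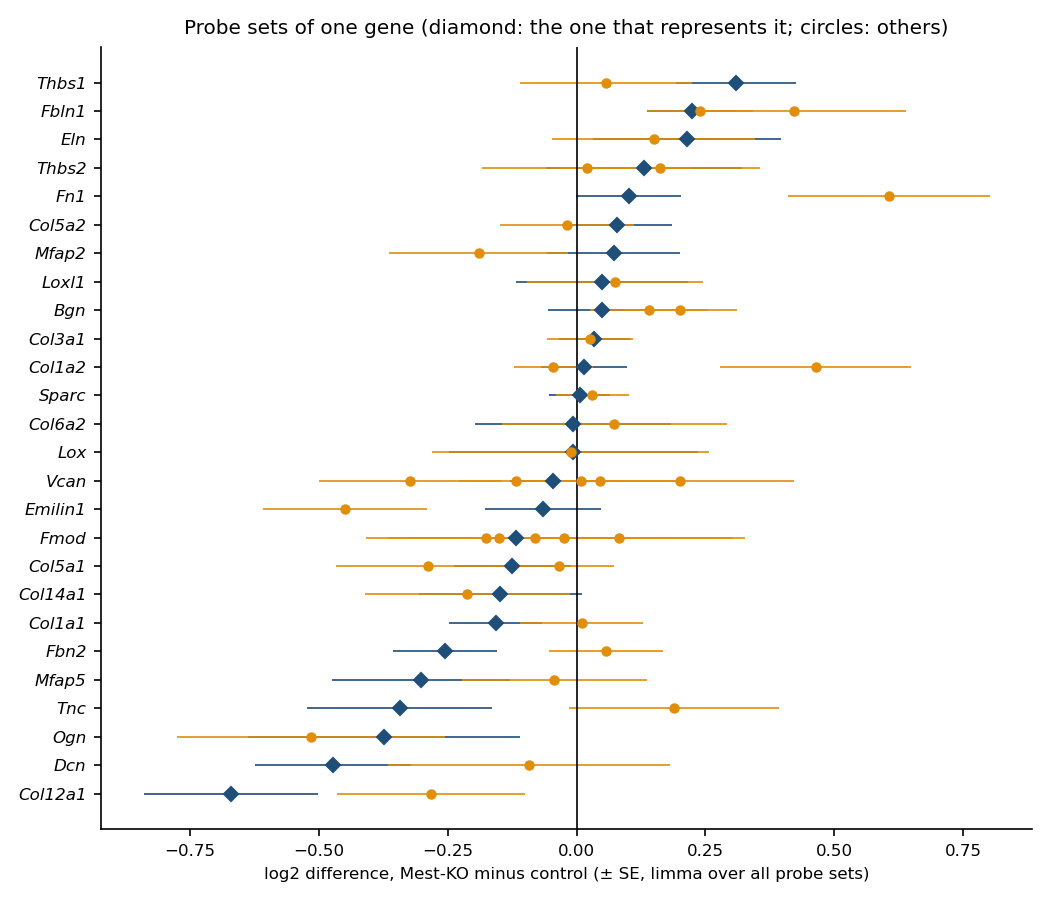
Log2 difference ± SE of every probe set above the filter for the 26 matrix genes with more than 1 such probe set; the diamond is the probe set that represents the gene and circles are the others. In 17 of the 26 genes all probe sets lie on the same side of 0, and the second probe sets of Fn1 and Emilin1 lie apart from the first.

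The 36 genes were read by 85 probe sets, of which 73 were above the filter. Fitted over all probe sets, 0 of the 73 passed (limma; 20 of 26736, 0.0748%, did). The groups did not overlap for 6 higher and 4 lower, beside 14.6% of all probe sets in either direction. Those 10 included Emilin1 and a second Fbln1 probe set as well as a dim one of Col1a2, which differed by 0.46 ± 0.19 where the 2 bright ones differed by 0.01 ± 0.08 and -0.05 ± 0.08.

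The matrix genes varied together from array to array within a group. In control, 21 of the 34 were highest on control 1 and 27 were lowest on control 2, whereas 34.4% and 37.9% of all genes tested were. In Mest-KO, 21 were highest on Mest-KO 2 and 23 lowest on Mest-KO 3, beside 31.7% and 38.6% of all genes. Relative to its 6-array mean, the average matrix gene stood on the log2 scale at 0.14, -0.12 and 0.03 on the control arrays, and at 0.01, 0.12 and -0.18 on those of Mest-KO. The proteoglycans had the widest such range of the larger roles, from 0.31 on control 1 to -0.38 on Mest-KO 3, and the 9 elastic fibre genes a narrow one, from 0.07 to -0.07. The smooth muscle and pericyte markers stood at -0.04, -0.18 and -0.07 in control and 0.07, 0.36 and -0.14 in Mest-KO, so control 2 and Mest-KO 3 were low and Mest-KO 2 high in both. The neural tube markers stood at 0.76, -0.35 and 0.82 in control and -0.57, 0.07 and -0.74 in Mest-KO, and were likewise lowest of their group on control 2 and Mest-KO 3. So were the markers of cartilage condensation, at 0.06, -0.03 and 0.11 in control and 0.06, -0.08 and -0.12 in Mest-KO. Those of Schwann cell precursors and neural crest were too, at 0.003, -0.23 and 0.08 in control and 0.06, 0.06 and 0.03 in Mest-KO. The remaining lists were not lowest on both of these arrays. The mesenchyme markers stood at 0.10, -0.03 and 0.07 in control and were lowest in Mest-KO on array 1, at -0.10, while head muscle markers were highest in control on array 2, at 0.50. The part of any of these cells in the pattern was not tested. With the neural tube covariate the median difference of the matrix genes went from -0.01 to 0.16.

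**Figure D4:**
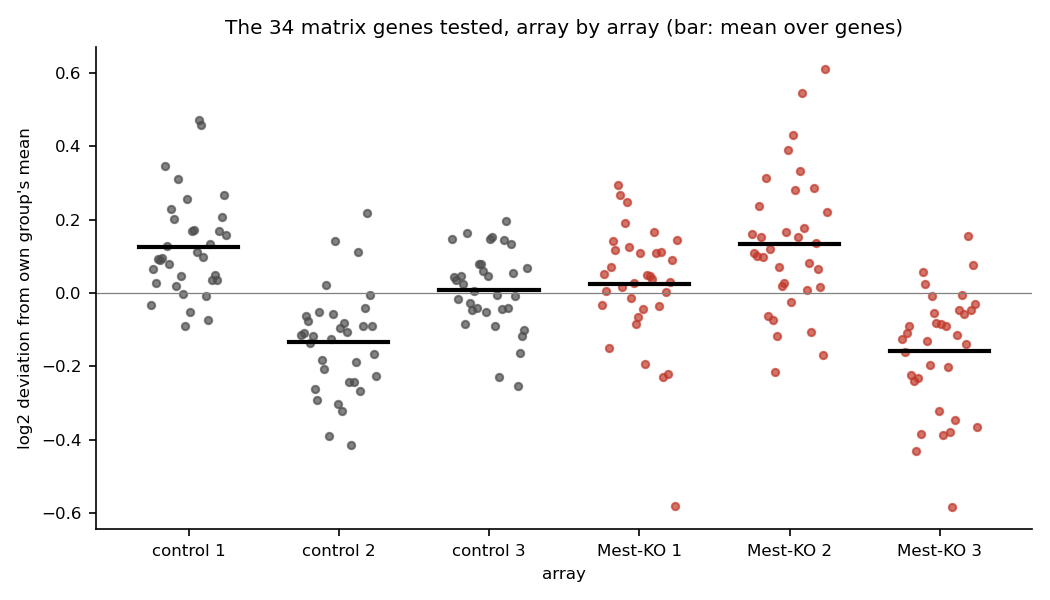
Deviation of each of the 34 matrix genes from the mean of its own group, on the log2 scale, by array; the bar is the mean over genes. By replicate number the means are 0.13, -0.13 and 0.01 for the controls and 0.02, 0.13 and -0.16 for Mest-KO.

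The spread within groups was unequal among the members. The residual SD of Ogn was 0.51 on the log2 scale, above 98.5% of all genes tested, and those of Lox, Fmod, Col6a2, Lum and Thbs2 were at the 97.9, 95.9, 94.4, 94.4 and 92.7 percentiles. Lox read 981.9, 721.7 and 756.7 in control and 534.9, 1244 and 792.2 in Mest-KO, so the range within Mest-KO covered that of the controls. Sparc, Postn, Col3a1 and Fbln1 were at the 5.31, 16.2, 18.7 and 19.8 percentiles. The median residual SD was 0.16 for the 34 and 0.14 for all genes. Postn was thus one of the steadiest of the matrix genes within groups. Relative to its control mean it stood at 0.54, 0.57 and 0.54 in Mest-KO 1, 2 and 3, while the median of the other 33 matrix genes stood at 0.04, 0.13 and -0.15. Of those 33, 0, 1 and 0 stood higher than Postn on Mest-KO 1, 2 and 3. Because Postn was the gene that passed on these same arrays, its low spread and high place are not separate support.

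Genes that process, degrade or bind this matrix were read from lists apart from the 38. For comparison, 53.8% of all genes tested were higher and 8.97% had an unadjusted p under 0.05 (limma). For collagen folding and processing, 23 of 27 genes were tested, 15 were higher and 8 lower, the median was 0.04, and 0 passed (limma; 0 at an unadjusted p under 0.05). The smallest p values were those of P3h2, a prolyl 3-hydroxylase gene (0.32 ± 0.15), Bmp1, whose product trims procollagen (0.21 ± 0.12), and Crtap, a partner of prolyl hydroxylation (-0.17 ± 0.11). All 3 kept their direction in the 19 alternatives but were smaller without some single arrays. P3h2 was at 0.20 without control 1 and 0.21 without Mest-KO 2, and Bmp1 at 0.12 without Mest-KO 1. Crtap was at -0.11 without control 1 and -0.092 without Mest-KO 3. For matrix breakdown and its inhibitors, 20 of 22 were tested, 14 were higher, the median was 0.06 and 0 passed, with 3 at an unadjusted p under 0.05. These were the protease genes Adamts5 (0.39 ± 0.12), Fap (0.48 ± 0.15) and Adam19 (0.25 ± 0.10), each with groups that did not overlap. Adamts5, which cleaves versican and aggrecan, read 199.97 to 216.7 in control and 264.2 to 297.3 in Mest-KO (limma, adjusted p = 0.315). The difference was 0.21 with the mean of its probe sets, and that of Adam19 was 0.10 with the neural tube covariate.

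Of 20 matrix receptor genes tested, 1 rose and 0 fell, with a median of -0.02. Itga4, encoding the alpha 4 integrin subunit that binds fibronectin, read 1485, 1617 and 1571 in control, and the Mest-KO arrays, all higher, read 2476, 2524 and 2177. Its mean rose from 1558 ± 66.9 to 2393 ± 188.0 (0.61 ± 0.08; limma, adjusted p = 0.0256). It passed in 9 of 19 alternatives, and the call was lost without control 1 (adjusted p = 0.10) or 3 (0.0983), or without Mest-KO 1 (0.144) or 2 (0.0958). With the mean of all its probe sets the difference was 0.24 ± 0.09 (adjusted p = 0.407). In the TGF-beta axis and regulators of fibroblasts, 24 of 26 were tested, 14 were higher, 0 passed and 5 had an unadjusted p under 0.05. The smallest p was that of Ccn3, encoding a matricellular CCN protein, which read 131.7, 82.3 and 90.3 in control and 156.9, 236.7 and 187.6 in Mest-KO. Its groups did not overlap and the difference was 0.84 ± 0.19 (limma, adjusted p = 0.179). Ccn4, of the same family, differed the other way by -0.64 ± 0.21 with overlap (-0.15 with the neural tube covariate), and Prrx2, a mesenchymal homeobox gene, by -0.30 ± 0.11 without. The ligand genes Tgfb1, Tgfb2 and Tgfb3, named after their values were seen, differed by 0.11 ± 0.15, 0.14 ± 0.09 and 0.01 ± 0.12.

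Among relatives of the matrix genes outside the list, 37 of 42 were tested, 19 were higher and 18 lower, the median was 0.03, and 0 passed, with 2 at an unadjusted p under 0.05. Col25a1, encoding a transmembrane collagen, read 2323, 2059 and 2442 in control and 1635, 1515 and 1770 in Mest-KO. Every Mest-KO array was lower and the difference was -0.47 ± 0.09 (limma, adjusted p = 0.106). It passed without control 2 (-0.54 ± 0.10, adjusted p = 0.0368) and with the arrays centred on their medians (-0.53 ± 0.10, adjusted p = 0.0288). Efemp1, a fibulin relative, differed by -0.55 ± 0.22 and Kera, the gene for the proteoglycan keratocan, by 0.38 ± 0.17, both with overlapping groups. Efemp1 was at -0.36 without Mest-KO 3 and -0.17 with the neural tube covariate, and Kera at 0.25 with a pseudocount of 64. Col25a1 was at -0.28 with the mean of its probe sets.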

How the data were processed

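RNA of 6 pools was hybridised to 1-colour Affymetrix mouse genome arrays, 300 ng per array per the labels' protocols. The submitters' processing notes name Affymetrix Expression Console 1.1 for the deposited linear intensities, and summarization and background correction are not given there. Each array had a trimmed mean of 500.002 (lowest and highest 2% left out) and medians ran from 59.954 to 70.6371, so the authors had scaled the arrays without quantile normalization, and the scaling would hide a shift common to most genes. The number of arrays limits the precision.

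From these, 64 control probe sets were left out, and 34945 of 45101 probe sets named 1 gene, 932 several and 9160 were not listed. For each gene the probe set of highest mean log2(intensity + 16) was kept, and genes over the 30th percentile of non-control probe sets were tested with limma 3.58.1 (R 4.3.3; lmFit, eBayes with trend, two-sided, Benjamini-Hochberg at 0.05). Exact permutation tests were two-sided. The fit was also run on simulated data with errors drawn independently for each gene, which leaves out genes that vary together by array. Replicates are separate pools per the labels. The matrix genes and lists were chosen with earlier results of these data known, so no list was tested. Per-array values are given for genes that passed, had groups that did not overlap or had the smallest p of their role, and for Col3a1, Fbn2, Ogn, Lox and a probe set of Fn1, chosen after their values were seen. Of each list apart from the 38, genes that passed are named, or up to 3 of smallest p. Alternatives changed scaling, pseudocount, filter, probe set choice, variance model, weights, block, covariates and the arrays used. Promoters are from RefSeq.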

Additional observations from a re-analysis of the deposited data

How the results depend on the processing

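Of 14170 genes, 21 passed as reported; the count was 78 with arrays centred on their medians (22 higher and 56 lower), 2 of 18193 tested with no filter, 6 with the mean of all probe sets, 1 with eBayes without trend, 9 with the replicate block and 5 with the neural tube covariate. Leaving out 1 array gave 2 to 82, namely 2 (control 1), 82 (control 2), 6 (control 3), 3 (Mest-KO 1), 9 (Mest-KO 2) and 21 (Mest-KO 3). Of the matrix genes, 0 passed instead of 1 with no filter, with the mean of all probe sets, with eBayes without trend, with the replicate block and with the neural tube covariate, and 0 to 1 with an array left out. Of their probe sets, 1 passed instead of 0 with a pseudocount of 64, with array weights and with the Y-linked covariate; averaging probe sets leaves no value for this count. The median of the matrix genes was 0.16 with the neural tube covariate; in the other 18 alternatives it moved by less than the spread between arrays. The sign turned for Col1a1 with the neural tube covariate (0.017), and with centred arrays for Col6a1 (-0.029) and Loxl1 (-0.016). With an array left out, Col6a1 ranged from -0.035 to 0.16 and Loxl1 from -0.063 to 0.23, neither past the threshold in any alternative. Col12a1, Thbs1, Dcn, Fbln1, Mfap4 and Mfap5 kept their direction and their side of the threshold in every alternative run, but not their size: their smallest differences were -0.31, 0.18, -0.28, 0.16, 0.15 and -0.16; Mfap5 was not tested with the filter at the 50th percentile. Arrays of the same number did not deviate together (correlations of -0.03, -0.11 and -0.15). Such a check can miss a weak pairing, so whether the numbers pair the arrays is not settled. With the replicate block Postn differed by 0.55 ± 0.09 (limma, adjusted p = 0.0862).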
